A study of Zea mays with 36 samples.

Results

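The maize genes sh1 (LOC542365) and ss2 (LOC542247) encode sucrose synthases, and eno1 (LOC732811) and eno2 (LOC542316) encode enolases. All spots whose platform gene symbol or a synonym names these 4 genes were taken, whatever their values: 28 of the 19200 spots of the SAM1 array and 11 of the 16000 spots of the SAM3 array. On SAM1, 7 probes stood for sh1, 7 for ss2, 6 for eno1 and 8 for eno2. On SAM3, sh1 and eno2 had 1 probe each, ss2 had 5 and eno1 had 4. The 4 genes stand among 583 named genes on SAM1 and 598 on SAM3.

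Sucrose synthase splits sucrose, with UDP, into UDP-glucose and fructose, which feed cell wall polymers, starch and glycolysis. The gene sh1 is shrunken1, best known from the developing kernel, and ss2, also called sus1, is expressed in many organs. Enolase turns 2-phosphoglycerate into phosphoenolpyruvate late in glycolysis. Sucrose synthase and enolase both belong to the set of proteins that maize makes under low oxygen, and in maize eno1 is the enolase gene that responds to it.

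The study compared shoot apical meristem cells of rgd2-R seedlings with those of non-mutant seedlings. The rgd2-R group carried an allele of ragged seedling2 that had been crossed into Mo17, a maize inbred line, over 5 generations. Seedlings of both groups were 14 days past germination and had shared controlled growth conditions when their meristems were laser microdissected, and 2.5 µg of amplified RNA was labelled per dye. Each hybridisation held both genotypes, and each array design had 6 biological replicates read 3 times (low, mid and high). The rgd2-R RNA carried Cy3 in the first 3 replicates and Cy5 in replicates 4 to 6. The 36 deposited samples are therefore 12 hybridised replicates. The labels give no further genotype of the non-mutant plants, and ragged seedling2 is not analysed here, so the labels have no check from it.

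Ratios are on the log2 scale with rgd2-R above non-mutant, so a value below 0 means a lower signal in rgd2-R. The mean of the 3 readings is 1 value per replicate. Fewer cells of a type and less RNA per cell cannot be told apart in such captured tissue. The sequences of the probes were not used here, so whether a probe of 1 gene also bound RNA of its relative was not tested.

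The directions of SAM3 are not settled. In replicate 3 of SAM3 the high reading correlated with the low and mid readings at -0.92 and -0.94 over 10966 brighter probes, while all other pairs of readings of 1 replicate on SAM3 were positive (0.53 to 0.89). In 34 of the 36 readings the Cy3 median was the brighter one, and the 2 exceptions were these low and mid readings, with Cy3 medians of 143 and 287 against Cy5 medians of 375 and 505.5. Replicate 2 of SAM3 also ran against replicate 1, with r from -0.26 to -0.17, though both had rgd2-R in Cy3. The SAM3 gene values of sh1, ss2, eno1 and eno2 are therefore given in 3 ways. They are as labelled, with the low and mid readings of replicate 3 turned in sign, and with replicate 2 turned as well. Other SAM3 values, such as those of markers and list genes, are as labelled unless stated otherwise. On SAM1, all 18 pairs of readings of 1 replicate were positive, at 0.32 to 0.36 in replicate 5 and at 0.74 to 0.87 in the other replicates. Between SAM1 replicates with rgd2-R in the same dye, r was 0.07 to 0.38. Across the dye orientations some pairs were negative, with replicate 2 against replicate 5 the lowest, down to -0.16.

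No difference between rgd2-R and non-mutant meristems passed the test for any of the 4 genes, on either array, given the spread of the replicates. On SAM1 the gene means were -0.12 for sh1, -0.09 for ss2, -0.02 for eno1 and 0.06 for eno2, each over 6 replicates. On SAM3 as labelled they were 0.02 for sh1, -0.12 for ss2, 0.10 for eno1 and -0.15 for eno2. The lowest adjusted p among the 4 genes was 0.716 on SAM1 and 0.865 on SAM3 (limma with a dye term, Benjamini-Hochberg over 17983 and 15439 rows, two-sided, threshold 0.05). Among all spots, 0% were called on SAM1 and 0% on SAM3 at that threshold. At an unadjusted p under 0.05, 1 of 28 member probes passed on SAM1, where 14.8% of all probes did, and 1 of 11 on SAM3, where 6.58% of all probes did. On SAM1, 0 of 28 member probes kept 1 sign over the 6 replicates, where 6.94% of all probes did. The dye term had an unadjusted p under 0.05 at 6 of 28 member probes on SAM1 (10.2% of all probes) and at 1 of 11 on SAM3 (6.56% of all probes). Of the member probes, 18 of 28 had a mean below 0 on SAM1, where 48.8% of all probes did, and 5 of 11 on SAM3, where 51.4% did.

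The sucrose synthase gene sh1 varied widely between SAM1 replicates. Its values were -0.33, -0.65 and 0.29 in replicates 1, 2 and 3, and -0.03, 0.03 and -0.01 in replicates 4, 5 and 6. The lowest and the highest values thus both came from replicates with rgd2-R in Cy3, and with rgd2-R in Cy5 all 3 lay close to 0. The mean of -0.12 (SE 0.11, SD 0.33, n = 6) had a 95% interval from -0.38 to 0.15 and a limma adjusted p of 0.716. The interval is wide on both sides of 0. Without replicate 2 the limma estimate and the plain mean of the 5 remaining replicates were both -0.01. Without replicate 3 the estimate was -0.25 and the plain mean -0.20.

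The 7 sh1 probes shared that pattern. In replicate 2 all 7 were below 0, from -0.90 to -0.27, and in replicate 3 all 7 were above 0, from 0.14 to 0.40. Over the 6 replicates the 21 pairs of sh1 probes correlated at a median r of 0.88 (0.60 to 0.99), all above 0. Pairs of an sh1 probe and a probe of the other 3 genes had a median r of -0.09. The probe means ran from -0.15 at spot 15825 to -0.00 at spot 12431, so all 7 were below 0. These probes read 1 RNA in the same hybridisations and are not separate replicates.

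The leaf primordium markers of SAM1 (rs2, ns2, yab9, yab10 and yab14, 5 of 6 listed) stood apart in the same replicate 3, with a mean log2 ratio of 1.65 and single genes from 1.45 to 1.87. In the other 5 replicates their mean lay between -0.23 and 0.36. Their probes had median signals 5.23 to 7.66 times the background, so none was near 0. The part of these markers in the sh1 value of replicate 3 was not tested. On SAM3 all 6 listed leaf primordium genes averaged -0.02 in replicate 3 as labelled, where the direction is not settled. Single genes there ran from -0.36 to 0.33. Their highest SAM3 means were 0.34 and 0.39, in replicates 4 and 6. In replicate 3 of SAM1 the listed shoot meristem genes (2 on the array) averaged 0.09, with single genes at -0.21 and 0.40. The epidermis genes (3 on the array, 1 of them under 2 times background) averaged 0.10, with single genes from -0.01 to 0.29. Of the shoot meristem markers, the homeobox genes kn1 and lg3 had median signals 7.12 and 2.68 times background on SAM1. On SAM3 they had 12.1 and 5.75 times background, while knox3 had 2.55 and knox8 had 1.48. Of the genes listed for photosynthetic leaf, 4 of 7 on SAM1 and 2 of 6 on SAM3 had signals under 2 times background. The others reached up to 2.44 times background on SAM1 and 3.33 times on SAM3.

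**Figure D1:**
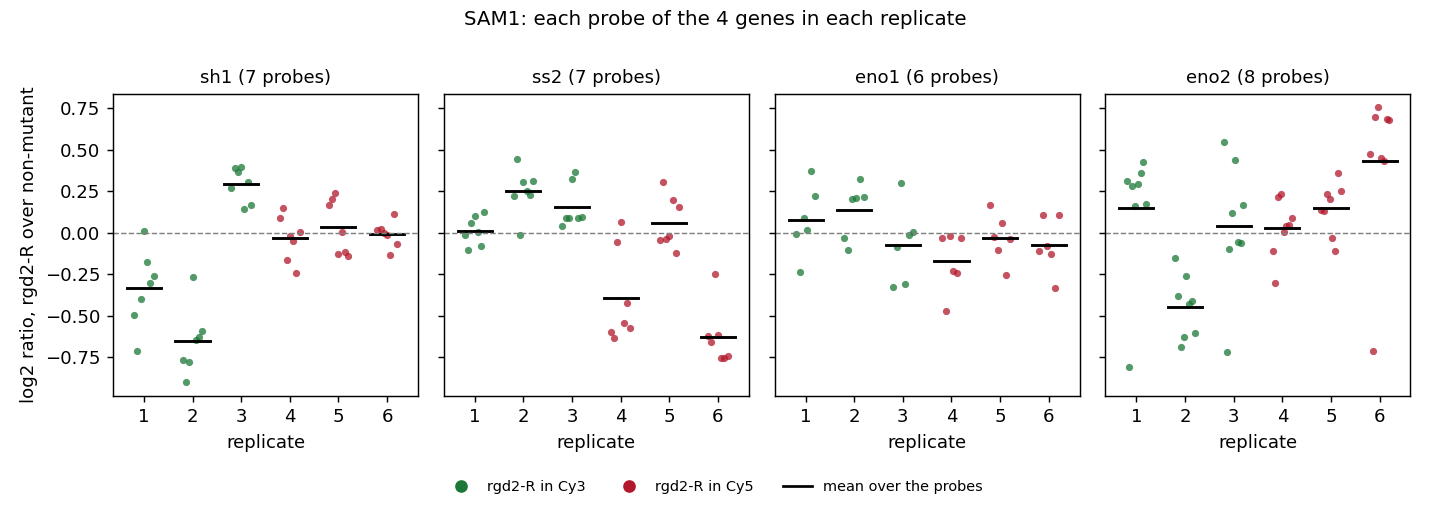
Log2 ratio of rgd2-R over non-mutant on SAM1 (vertical axis) in replicates 1 to 6 (horizontal axis) for the 7 sh1, 7 ss2, 6 eno1 and 8 eno2 probes. Points are probes, coloured by the dye of rgd2-R, and black bars are the mean over the probes of a gene. The sh1 probes move together from below 0 in replicate 2 to above 0 in replicate 3, and 1 eno2 probe lies apart from the rest.

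The second sucrose synthase gene, ss2, followed another course over the same replicates. Its SAM1 values were 0.01, 0.25 and 0.16 in replicates 1 to 3 and -0.39, 0.06 and -0.63 in replicates 4 to 6. The lowest values were those of replicates 4 and 6, both with rgd2-R in Cy5, but replicate 5 overlapped the Cy3 replicates. The mean was -0.09 (SE 0.09, SD 0.34, n = 6), with a 95% interval from -0.30 to 0.12 and a limma adjusted p of 0.732. Without replicate 6 the limma estimate was -0.01, and the plain mean of the 5 remaining replicates was 0.02. Without replicate 5 the estimate was -0.19 and the plain mean -0.12. The dye coefficient, -0.23 on the log2 scale, had an unadjusted limma p of 0.0381, and 8.92% of named genes on SAM1 had a dye p under 0.05. The genotype estimate is the mean of both orientations, which differed by more for ss2 than the genotype estimate itself.

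All 7 ss2 probes fell below 0 in replicate 6 of SAM1, from -0.75 to -0.25. Their 21 pairs correlated at a median r of 0.91 (0.59 to 0.98), against -0.20 with probes of the other 3 genes. Both sucrose synthases were thus read the same way by their own probes while differing from each other, with r = -0.29 between the sh1 and ss2 gene values over 6 replicates that share their hybridisations. The mean difference, sh1 minus ss2, was -0.03 (SD 0.54, n = 6, above 0 in 3 of 6) and did not pass an exact sign-flip permutation test (two-sided p = 0.938, adjusted p = 0.938 over 4 pairs). The smallest p that 6 replicates allow in this test is 0.03125.

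**Figure D2:**
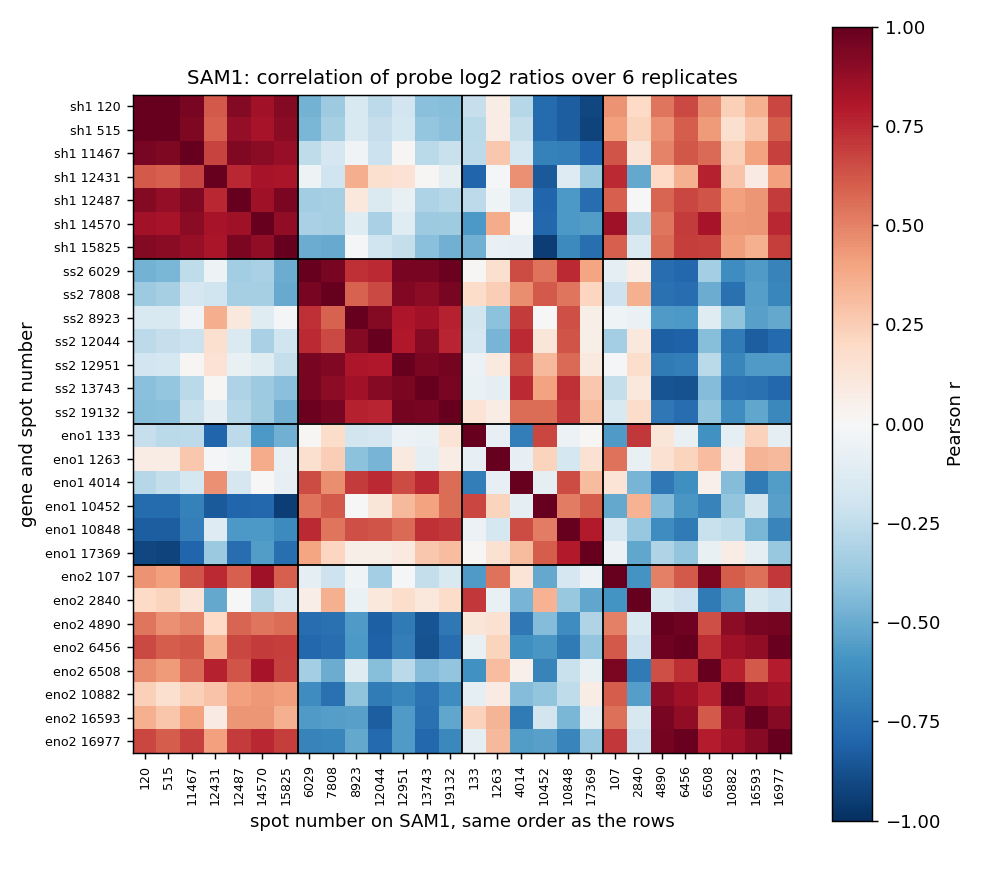
Pearson correlation (colour scale, -1 to 1) of log2 ratios over 6 SAM1 replicates between all 28 probes, ordered by gene and spot number, with black lines between genes. The blocks of sh1 and ss2 are red throughout, that of eno2 is red except for spot 2840, and that of eno1 is mixed.

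The enolase gene eno1 had the narrowest replicate spread of the 4 gene means on both arrays. Its SAM1 values were 0.08, 0.14 and -0.07 in replicates 1 to 3 and -0.17, -0.03 and -0.07 in replicates 4 to 6. All 6 lay within 0.31 of each other, with values from both dye orientations overlapping. The mean was -0.02 (SE 0.05, SD 0.11, n = 6), with a 95% interval from -0.15 to 0.10 and a limma adjusted p of 0.903. Of the 583 named SAM1 genes, 76.7% had an SD at least as large, against 11.3% for sh1, 9.95% for ss2 and 17.8% for eno2. The median SD of named genes was 0.17. This SD is that of a mean over 6 probes, and the single eno1 probes had SDs of 0.12 to 0.31. On SAM3 the eno1 SD of 0.12 is that of a mean over 4 probes, with single SDs of 0.15 to 0.28. There sh1 (SD 0.22) and eno2 (SD 0.47) had 1 probe each, so the spreads are not of like measures.

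The 6 eno1 probes of SAM1 did not move together. Their 15 pairs had a median r of 0.16 (-0.69 to 0.79), with 9 above 0. Their means ran from -0.14 at spot 1263 to 0.08 at spot 17369, with 4 below 0. With so small a spread in the gene value, the order of its replicates is not resolved by these probes.

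The enolase gene eno2 had SAM1 values of 0.15, -0.44 and 0.04 in replicates 1 to 3 and 0.03, 0.15 and 0.43 in replicates 4 to 6. Replicate 2 was the low one and replicate 6 the high one, and the other 4 lay between 0.03 and 0.15. The mean was 0.06 (SE 0.09, SD 0.29, n = 6), with a 95% interval from -0.16 to 0.28 and a limma adjusted p of 0.842. Without replicate 2 the limma estimate was 0.15 (plain mean 0.16), and without replicate 1 it was 0.00 (plain mean 0.04). The difference eno1 minus eno2 was -0.08 (SD 0.36, n = 6), below 0 in 5 of 6 replicates, and did not pass the exact sign-flip permutation test (two-sided p = 0.594, adjusted p = 0.792 over 4 pairs).

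The 8 eno2 probes did not all read the same way. Spot 2840 gave -0.81, -0.38 and -0.72 in replicates 1 to 3 and -0.30, 0.13 and -0.71 in replicates 4 to 6. It was lower in rgd2-R in 5 of 6 replicates, with a mean of -0.47 (SE 0.11, n = 6), an unadjusted limma p of 0.00382 and an adjusted p of 0.142, so it was not called. The other 7 probes had means from 0.04 at spot 10882 to 0.20 at spot 107, all above 0. Spot 2840 correlated with the mean of the other 7 at r = -0.36, while each of those 7 correlated with the mean of its companions, spot 2840 included, at 0.60 to 0.99. Spot 2840 was no dim spot, with a median signal 16.1 times background and more than 2 times background in both dyes in all 18 readings.

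**Figure D3:**
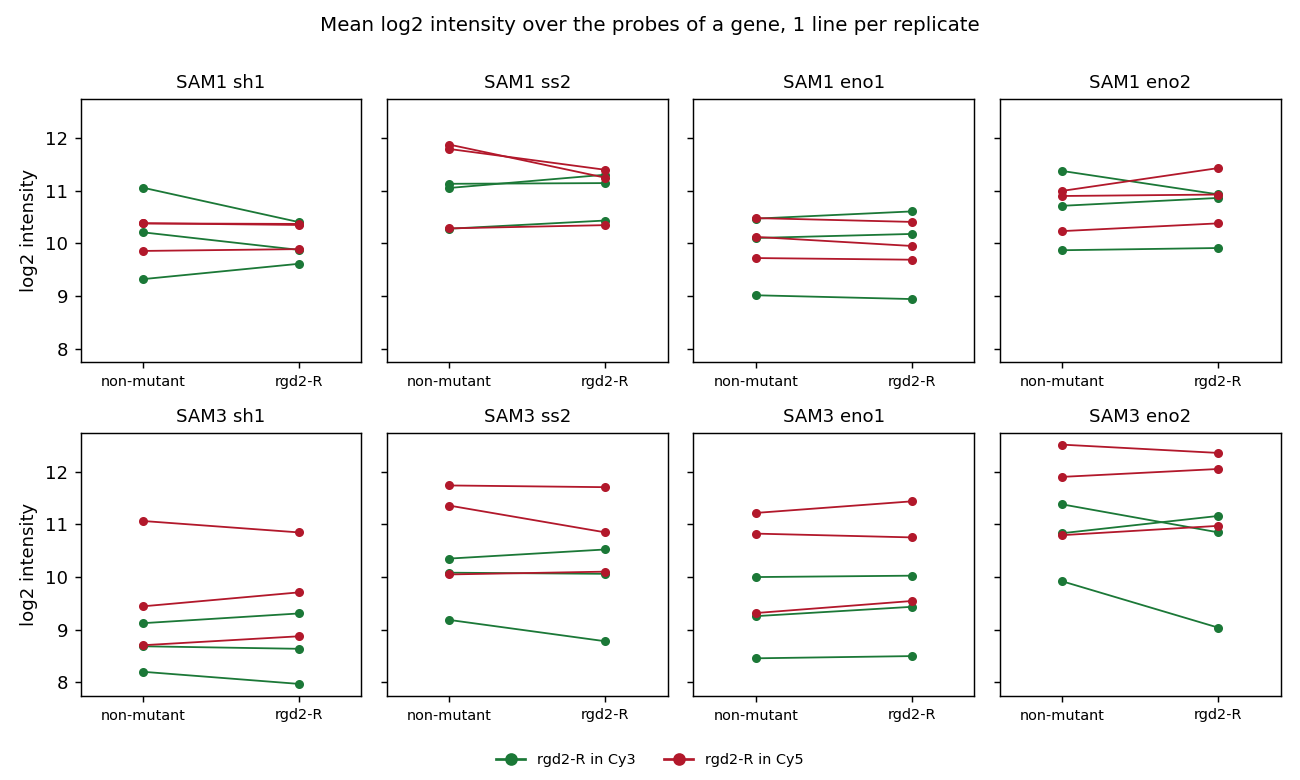
Mean log2 intensity over the probes of each gene (vertical axis) in non-mutant and rgd2-R (horizontal axis), with 1 line per replicate, coloured by the dye of rgd2-R, on SAM1 (upper row) and SAM3 (lower row). The lines of a gene lie far apart in height and most are nearly level. Heights are not comparable between genes, since they are read by different probes, and were not normalized between hybridisations.

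The channel intensities of a gene differed far more between replicates than between genotypes. They were not normalized between hybridisations, so this spread includes the brightness of the whole array. The median Cy3 signal of the SAM3 low reading, for example, was 145 in replicate 1 and 540 in replicate 5. On the log2 scale, the sh1 level on SAM1 was 10.09 ± 0.33 (SD, n = 6) in rgd2-R and 10.20 ± 0.58 in non-mutant. That of ss2 was 10.98 ± 0.46 in rgd2-R and 11.07 ± 0.69 in non-mutant. For eno1 the levels were 9.96 ± 0.60 and 9.99 ± 0.55, and for eno2 they were 10.74 ± 0.52 and 10.68 ± 0.55, in rgd2-R and non-mutant in turn. The ranges of the genotypes overlapped for all 4 genes on both arrays. These ranges ignore the pairing within a hybridisation, so their overlap is no test of a genotype difference. On SAM3 the SDs were larger, from 0.91 to 1.17.

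Signal strength did not limit most of these readings. Of the 39 member probes, 25 were more than 2 times background in both dyes in all 18 readings, and 4 were so in fewer than 9. The 4 comprise sh1 spot 12487, ss2 spot 8923 and eno1 spot 4014 on SAM1 and ss2 spot 12630 on SAM3, chosen after their values were seen. The highest raw member signal was 56405, and 0 member spots reached the scanner's saturation, set at 65000.

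On SAM3 the single sh1 probe, spot 762, gave -0.23, -0.05 and 0.18 in replicates 1 to 3 and 0.17, -0.22 and 0.26 in replicates 4 to 6. Values above and below 0 occurred in both dye orientations. As labelled, the mean was 0.02 (SE 0.09, n = 6) with a 95% interval from -0.18 to 0.22 and a limma adjusted p of 0.994. With the low and mid readings of replicate 3 turned it was -0.13 (adjusted p = 0.739), and with replicate 2 turned as well it was -0.11 (adjusted p = 0.667). The sign of sh1 on SAM3 was thus not resolved, and it did not rest on the direction of replicate 3 alone. As labelled, 3 of the 6 limma estimates without 1 replicate were below 0. These were -0.033 without replicate 3, -0.0036 without replicate 4 and -0.027 without replicate 6.

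The 5 ss2 probes of SAM3 gave a gene value of -0.40, -0.02 and 0.17 in replicates 1 to 3 and 0.05, -0.03 and -0.51 in replicates 4 to 6. Replicates 1 and 6 were the low ones, and all 5 probes were below 0 in each. The mean was -0.12 as labelled (SE 0.10, n = 6), with a 95% interval from -0.37 to 0.12 and a limma adjusted p of 0.928. It was -0.24 with the replicate 3 readings turned (adjusted p = 0.678) and -0.23 with replicate 2 turned as well (adjusted p = 0.328). As labelled, the limma estimate was -0.04 without replicate 1 or without replicate 6, and -0.19 without replicate 3. The plain means were -0.07, -0.05 and -0.18 in turn. Probe pairs correlated at a median r of 0.78 (0.11 to 0.99), with 10 of 10 above 0. With probes of the other genes the median r was 0.25, so the 2 medians lay closer than on SAM1. Spot 11793 had the lowest mean, -0.28.

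The 4 eno1 probes of SAM3 gave 0.04, 0.18 and 0.03 in replicates 1 to 3 and 0.23, 0.22 and -0.07 in replicates 4 to 6. The gene value was above 0 in 5 of 6 replicates, with a mean of 0.10 (SE 0.06, n = 6), a 95% interval from -0.04 to 0.25 and a limma adjusted p of 0.865. Turned values were 0.08 (adjusted p = 0.746) and 0.02 (adjusted p = 0.916). Spot 12141 was higher in rgd2-R in 6 of 6 replicates as labelled, at 0.20, 0.53, 0.17, 0.15, 0.17 and 0.26. Its mean of 0.25 (SE 0.06, n = 6) had an unadjusted limma p of 0.00731 and an adjusted p of 0.578, and 3.16% of all SAM3 probes kept 1 sign over the 6 replicates. With replicates 3 and 2 turned this mean was -0.02, so the value rests on the labelled directions.

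The single eno2 probe of SAM3, spot 4956, had the widest spread of the 4 genes, with -0.88, -0.53 and 0.33 in replicates 1 to 3 and 0.18, -0.16 and 0.15 in replicates 4 to 6. Replicates 1 and 2 were the low ones. The mean was -0.15 (SE 0.15, SD 0.47, n = 6), with a 95% interval from -0.51 to 0.21 and a limma adjusted p of 0.953. In replicate 3 its readings were 1.15 (low), 0.94 (mid) and -1.11 (high), so averaging them as labelled joins opposite values of like size. With the low and mid readings turned, replicate 3 was -1.07 and the mean was -0.38 (95% interval -0.60 to -0.17, adjusted p = 0.567). With replicate 2 turned as well it was -0.21 (95% interval -0.71 to 0.29, adjusted p = 0.656). With the high reading turned instead it was -0.03 (95% interval -0.65 to 0.59). Without replicate 3 the limma estimate was -0.32 (95% interval -0.54 to -0.11, adjusted p = 0.663), and the plain mean was -0.25. Without replicates 2 and 3 the estimate was -0.41, with replicate 1 alone standing for the Cy3 orientation. The plain mean of those 4 replicates was -0.18, with 2 of 4 above 0. Without replicate 1 the estimate was -0.02 and the plain mean -0.01. The size of the eno2 value on SAM3 thus depended on single replicates of the Cy3 orientation.

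On SAM3 the difference sh1 minus ss2 was 0.14 (SD 0.33, n = 6) with an exact sign-flip permutation p of 0.438, and eno1 minus eno2 was 0.26 (SD 0.50, n = 6) with an exact p of 0.281. Each had an adjusted p of 0.792 over the 4 pairs. With the low and mid readings of replicate 3 turned, eno1 minus eno2 was 0.46, above 0 in 5 of 6 replicates (exact p = 0.0938). Its adjusted p of 0.188 is over 2 pairs only, so it cannot be set against the 0.792 over 4 pairs. In that setting sh1 minus ss2 was 0.11 (exact p = 0.656). With replicate 2 turned as well they were 0.23 (exact p = 0.375) and 0.12 (exact p = 0.562). As labelled, sh1 minus ss2 was 0.02 without replicate 6, and eno1 minus eno2 was 0.12 without replicate 1.

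**Figure D4:**
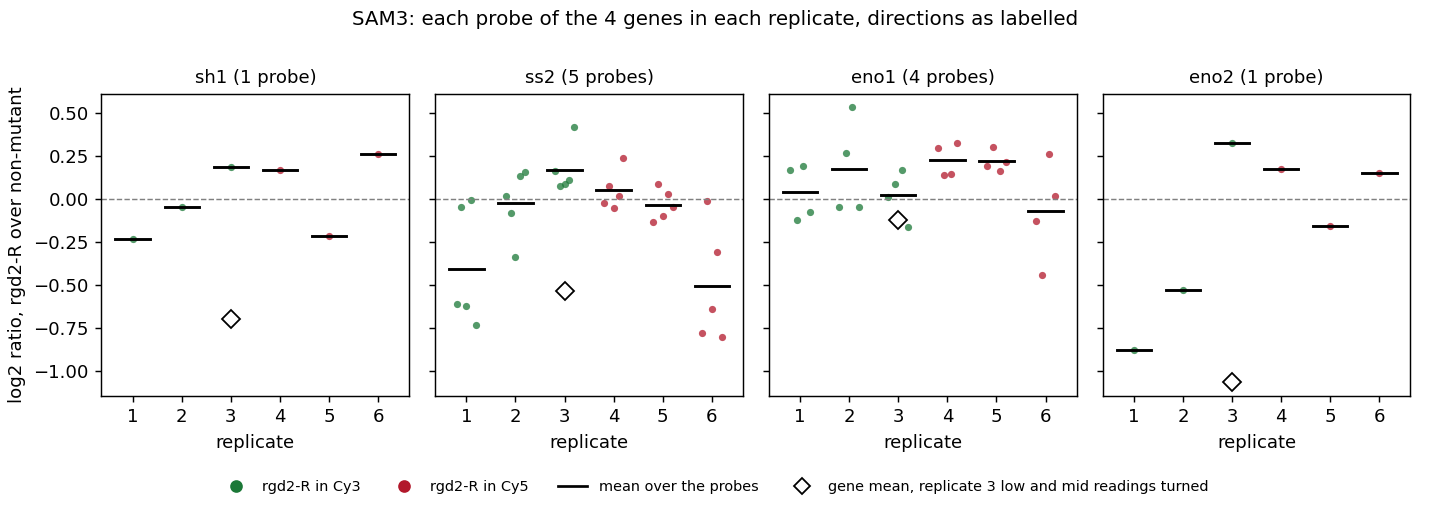
Log2 ratio of rgd2-R over non-mutant on SAM3 (vertical axis) in replicates 1 to 6 (horizontal axis), as labelled, for the probes of the 4 genes, coloured by the dye of rgd2-R, with black bars for the mean over the probes. Open diamonds are the gene mean of replicate 3 with its low and mid readings turned, at -0.70 for sh1, -0.54 for ss2, -0.12 for eno1 and -1.07 for eno2.

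**Figure D5:**
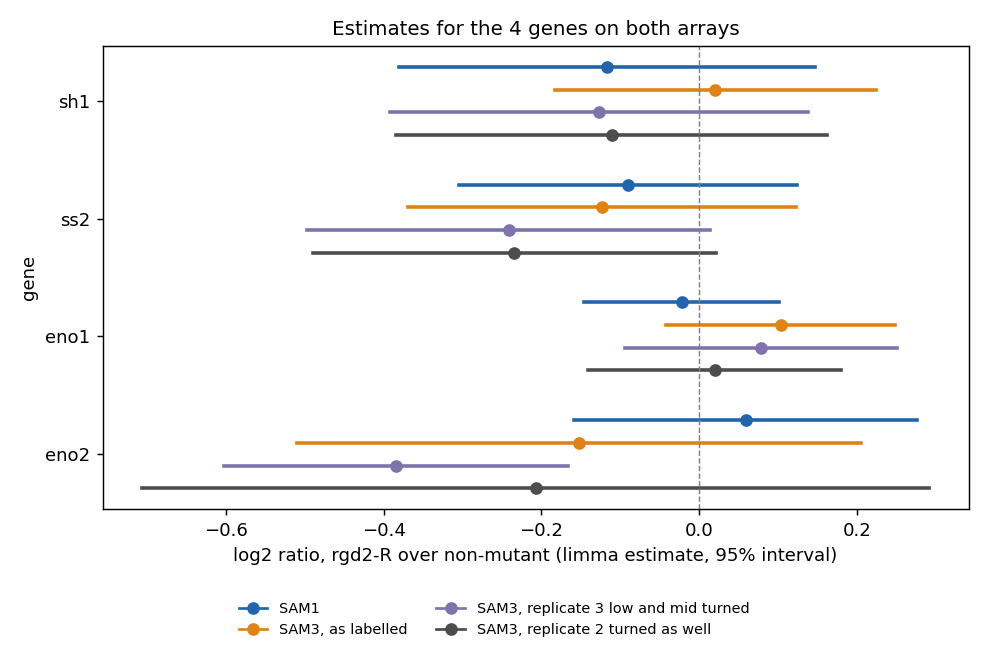
Limma estimates of the log2 ratio (points, horizontal axis) with 95% intervals (bars) for each gene (vertical axis), on SAM1 and on SAM3 under 3 choices of direction. The intervals of all 4 genes include 0 except that of eno2 with only the low and mid readings of replicate 3 turned, which had an adjusted p of 0.567.

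Genes around these steps were compared by name from 5 lists: sucrose cleavage and synthesis, hexose phosphates, glycolysis, low oxygen and fermentation, and starch. SAM1 held 27 of these genes, members included, and SAM3 held 26. In each list 0 genes passed the adjusted threshold in either direction. At an unadjusted p under 0.05, 2 genes were lower and 0 higher on SAM1, where 5.83% of named genes were lower and 6.17% higher. On SAM3 as labelled, 1 was higher and 0 lower, where 3.34% of named genes were higher and 2.34% lower. The median log2 ratio over the lists was -0.04 on SAM1 and -0.01 on SAM3, beside 0.00 and -0.00 for all named genes.

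The starch list had the lowest single value on SAM1. A probe of agp2 (Entrez 542072, an ADP-glucose pyrophosphorylase small subunit gene) gave -0.43 (SE 0.14, n = 6), below 0 in 6 of 6 replicates, with an unadjusted limma p of 0.0161 and an adjusted p of 0.232. On SAM3 as labelled, its 2 probes gave -0.20 (SE 0.10) with an adjusted p of 0.820. A second gene of that name (Entrez 542737), with 9 probes on SAM1, gave 0.03. The starch list gene bt2, with a median signal 2.08 times background, gave -0.09 on SAM1 with an adjusted limma p of 0.630. The bt1 and ae1 probes had median signals of 0.878 and 1.81 times background there, so no difference is read from them.

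In glycolysis, pfk1 (named as a phosphofructokinase gene) gave -0.28 (SE 0.10, n = 6) on SAM1, below 0 in 5 of 6 replicates, with an unadjusted limma p of 0.0285 and an adjusted p of 0.284. The glucose-6-phosphate isomerase gene phi1 gave -0.11 and pdh2, named for pyruvate dehydrogenase, gave -0.10 on SAM1, and the low oxygen list gene fdh1 gave -0.08. On SAM3 as labelled, pdk1 gave 0.14 (SE 0.05, n = 6) with an unadjusted limma p of 0.0313 and an adjusted p of 0.699. It was above 0 in 3 of 6 replicates, and its dye term had an unadjusted limma p of 0.0201. The haemoglobin gene glb1 gave 0.14 on SAM3 with an adjusted limma p of 0.777, the sucrose-phosphate phosphatase gene spp2 gave 0.11, the fructokinase gene frk2 gave -0.09, and gpc2, a cytosolic glyceraldehyde-3-phosphate dehydrogenase gene, gave 0.07. The alcohol dehydrogenase gene adh1, named here after its values were seen as a marker of low oxygen, was 0.02 (SD 0.36, n = 6) on SAM1 and 0.05 (SD 0.43) on SAM3.

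The named genes whose replicate values most resembled those of each gene were found by Pearson r over 6 replicates, among 579 genes on SAM1 and 594 on SAM3. With so many genes and 6 points that share arrays, high values of r are a description only. On SAM1, sh1 was closest to m29 (r = 0.97) and m20 (0.96), ss2 to 4CL (0.97) and psbs1 (0.95), eno1 to nfa104 (0.99) and GRF2 (0.96), and eno2 to SE1B (0.98) and sod2 (0.98), a superoxide dismutase gene. On SAM3 as labelled, eno2 was closest to ATP2 (0.92) and again sod2 (0.90), and sh1 to TPS9 (0.97) and CesA-9 (0.89). There ss2 was closest to hmt1 (0.95) and grp1 (0.95), and eno1 to CDPK2 (0.91) and KIN9 (0.91).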

How the data were processed

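Each deposited file gives, per the file headers, the raw intensity of a spot in both dyes with its local background. The authors' value table holds a processed natural log ratio, non-mutant over rgd2-R by the dyes in the labels. Its base was read from the slope of per-dye processed values on the natural log of background-subtracted signal (median 0.918, range 0.782 to 1.07), and how it was made is not stated in any source used here. Background was removed from the mean signal by normexp with an offset of 50, followed by loess within each array (limma 3.58.1, R 4.3.3). Ratios were turned to rgd2-R over non-mutant, and averaged over 3 readings. A limma model with genotype and dye terms (4 residual degrees of freedom) was fitted to all spots, and to rows with the probes of a gene averaged. Each array was fitted apart. The fit was also run on simulated independent normal values with changes of 1 and 2 log2 units, larger than the member estimates. Its outcome is not given here, and it did not cover changes as small as these estimates or opposed readings. Standard errors are those of the model, and SDs are over replicates. With a replicate left out, gene values are estimates of this model, which weighs both dye orientations equally. Plain means of the remaining replicates can differ from them, and the pair differences are such plain means. The number of replicates limits precision. Members, lists and tests were chosen with earlier results of these data known. The text calls the genes of an array that carry a probe with 1 gene name its named genes. By rule, it gives values for the members, the 8 list genes with the smallest unadjusted p per array, and the 2 genes most like each member per array. Marker genes, adh1 and the second agp2 gene stand outside that rule. Lists match symbols or synonyms, so a gene can be missed or be in more than 1 list. Alternatives covered background, normalization, readings, filters, dye term, directions, replicates and the rule for averaging probes. Figures used matplotlib 3.10.9. No sequence or coordinate is given.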

Additional observations from a re-analysis of the deposited data

Results flagged for a closer look

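Of 47 genes and probes examined for a sample far from the others, 3 probes had such a value. The cutoff is one that chance passes in about 1 in 20 items with normal values, so no excess is read from this count. A gene mean is counted beside its own probes, so the items are not independent. The share of all probes with such a value is not given here. In SAM1, ss2 spot 12044 was -0.62 in replicate 6, with -0.02 the nearest value. In SAM3, ss2 spot 12630, a dim spot, was -0.31 in replicate 6, with -0.01 the nearest. In SAM3, eno1 spot 12141 was 0.53 in replicate 2, the replicate whose direction is not settled, with 0.26 the nearest. For 2 probes every replicate moved one way with rgd2-R in Cy3 and the other way with rgd2-R in Cy5. For eno1 spot 4014 of SAM1, a dim spot, the mean with Cy3 exceeded that with Cy5 by 0.27. For eno1 spot 13976 of SAM3 the same difference was -0.28. Both had a dye term at an unadjusted limma p under 0.05 (0.0362 and 0.0469), and neither passed adjustment over all probes (adjusted p = 0.458 and 0.753). They were picked by this split between the dyes, so a low dye p is no separate support. The share of all probes with such a split is not given here.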

How the results depend on the processing

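No member gene or probe passed the adjusted threshold under any alternative run, and the lowest adjusted limma p of a member probe was 0.0677, for eno2 spot 2840 of SAM1 without background correction (all its alternatives lay at 0.0677 to 0.509). Of 168 gene values under alternatives, 158 kept their sign, and 10 turned, none of them called. The values kept include settings that could not move a member ratio. For every member these were quantile normalization of intensities between arrays, leaving out the dye term, and leaving out readings at the maximum. Leaving out the dimmest 25% of probes could move only ss2, the gene with probes among them. The rules for averaging probes could not move sh1 or eno2 on SAM3, with 1 probe each. SAM1 eno1 became 0.019 in the high reading, and its values without 1 replicate ran from -0.045 to 0.0074. SAM3 eno2 became 0.017 in the mid reading. SAM3 sh1 became -0.12 in the high reading, -0.13 and -0.11 with replicate 3 turned and with replicate 2 turned as well, and -0.079 without replicates 2 and 3 together, and ran from -0.033 to 0.093 without 1 replicate. SAM1 sh1 minus ss2 became 0.015 in the low reading and 0.037 by the median over probes, and ran from -0.16 to 0.15 without 1 replicate. SAM1 eno1 minus eno2 ran from -0.21 to 0.0033 without 1 replicate. SAM3 eno1 spot 12141 became -0.022 with replicates 3 and 2 turned. The count of all SAM1 probes past the threshold, 0 as reported, was 195 without background correction, 11 by median centring, 36 in the mid reading, 42 without the dimmest 25% of probes and 1 in the authors' value table, and 0 to 2 without 1 replicate. That of SAM3 was 2 with replicates 3 and 2 turned. The cause was not tested. Turning the high reading of replicate 3 and leaving out replicates 2 and 3 together were chosen after seeing the data. Every ratio already pairs the genotypes within a hybridisation. Beyond this pairing within a ratio, no paired analysis was possible because replicate numbers recur only between SAM1 and SAM3, whose probes differ.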
